A study of Homo sapiens with 16 samples.

Results

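The condensin and cohesin subunits measured here were 10 genes, SMC2, SMC4, NCAPD2, NCAPD3, NCAPG and NCAPH of condensin and SMC1A, SMC3, RAD21 and STAG2 of cohesin. They were taken as the probe sets that the array annotation assigns to exactly 1 gene symbol on that list. This gave 20 of the 19070 probe sets with 1 symbol, and 10 of 11963 genes. All 10 genes passed the filter on low values (log2 of at least 4 on at least 2 arrays), and 19 of the 20 probe sets did. The one left out, 215623_x_at of SMC4, reached 3.47 at most.

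RNA came from A673, an Ewing sarcoma cell line driven by EWS-FLI1, a fusion of EWSR1 and FLI1 that acts as an aberrant ETS transcription factor. All arrays used 1 clone, Asp14, which carries a vector for a short hairpin RNA against the fusion and a vector labelled TR, kept under zeocin and blasticidin. Doxycycline at 1 ug/ml switched the hairpin on, and RNA was taken on 4 untreated arrays when doxycycline was added (0 h), on 3 arrays each at 18 h and 36 h after it, and on 2 arrays each for 53 h, 72 h and 96 h. Untreated arrays existed at 0 h only, so loss of the fusion, doxycycline itself and time in culture cannot be told apart.

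Condensin and cohesin are ring-shaped complexes built on a pair of SMC ATPases closed by a kleisin subunit. Condensin, on SMC2 and SMC4, compacts chromosomes for mitosis. It exists as condensin I, with NCAPD2, NCAPG and the kleisin NCAPH, and condensin II, with NCAPD3, NCAPG2 and the kleisin NCAPH2. Cohesin, on SMC1A and SMC3 with the kleisin RAD21 and STAG1 or STAG2, holds sister chromatids together from replication to anaphase and shapes chromatin loops in interphase. STAG2 is a recurrently mutated tumour suppressor in Ewing sarcoma. Many condensin genes are transcribed mainly in dividing cells, and E2F factors, named with EWS/FLI1 in the title of the study, drive many genes of the cell cycle.

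Promoter windows from RefSeq (GRCh38.p14, 250 bases before to 50 after a gene start) were present for 9 of the 10 genes, with 15 windows in all. Exact matches on both strands were sought to E2F-like words, to the CHR element of late cell cycle genes, spelled TTTGAA, to the CCAAT box and to an ETS core, spelled CCGGAAG. The first E2F-like word was TTCCCGC. The second was spelled TTCGCGC, the third was spelled TTGCCGC and the last was spelled TTGGCGC. No match overlapped another match within a window, but the 2 windows of SMC1A overlap each other. The CHR word lay in a window of 6 genes (SMC2, SMC4, NCAPD2, NCAPD3, NCAPG and SMC3), against 18.2% of all genes in the table and 15.2% of all windows. The E2F-like words lay in windows of 5 genes (SMC4, NCAPD3, NCAPG, SMC1A and STAG2), against 15.3% of genes. By window they lay in 5 of the 15, against 13% of all windows. The CCAAT box was found for 4 genes (39.7% of genes in the table) and the ETS core for 2, SMC1A and NCAPG (12.2%). These lay in 5 windows (34.6% of all windows) and 3 windows (10.3%). A match is a description of the letters, not evidence of binding.

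6 windows are shown, for NCAPH, the gene with the deepest fall, for NCAPG, with 3 of the 4 kinds of match, for NCAPD2 and NCAPD3, which had the smallest and the largest share of their 72 h fall by 36 h among the 6 condensin subunits, and for SMC1A and STAG2, the cohesin genes with an E2F-like match. Capitals mark the matches on either strand, so a CCAAT box on the other strand reads ATTGG and the first E2F-like word reads GCGGGAA. The windows are chr2:96335516-96335815 (NCAPH, plus strand), chr4:17810729-17811028 (NCAPG, plus), chr12:6493852-6494151 (NCAPD2, plus), chr11:134223918-134224217 (NCAPD3, minus), chrX:53422605-53422904 (SMC1A, minus) and chrX:123961808-123962107 (STAG2, plus).
NCAPH: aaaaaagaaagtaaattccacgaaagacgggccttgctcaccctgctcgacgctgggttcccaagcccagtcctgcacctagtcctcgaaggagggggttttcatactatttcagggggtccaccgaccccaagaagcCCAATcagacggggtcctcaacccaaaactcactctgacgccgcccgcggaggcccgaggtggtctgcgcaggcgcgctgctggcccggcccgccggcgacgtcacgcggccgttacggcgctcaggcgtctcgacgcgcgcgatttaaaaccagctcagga
NCAPG: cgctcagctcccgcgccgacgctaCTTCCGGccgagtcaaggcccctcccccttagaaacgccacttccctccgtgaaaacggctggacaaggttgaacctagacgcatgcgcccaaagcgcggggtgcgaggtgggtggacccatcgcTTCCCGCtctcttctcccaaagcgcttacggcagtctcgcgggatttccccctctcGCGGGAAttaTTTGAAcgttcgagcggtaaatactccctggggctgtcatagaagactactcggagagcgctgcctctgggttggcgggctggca
NCAPD2: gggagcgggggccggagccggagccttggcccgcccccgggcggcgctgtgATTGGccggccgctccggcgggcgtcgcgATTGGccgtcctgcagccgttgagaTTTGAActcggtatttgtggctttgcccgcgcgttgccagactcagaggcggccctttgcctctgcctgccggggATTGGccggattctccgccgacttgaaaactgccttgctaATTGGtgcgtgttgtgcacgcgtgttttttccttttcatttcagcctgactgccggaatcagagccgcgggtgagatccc
NCAPD3: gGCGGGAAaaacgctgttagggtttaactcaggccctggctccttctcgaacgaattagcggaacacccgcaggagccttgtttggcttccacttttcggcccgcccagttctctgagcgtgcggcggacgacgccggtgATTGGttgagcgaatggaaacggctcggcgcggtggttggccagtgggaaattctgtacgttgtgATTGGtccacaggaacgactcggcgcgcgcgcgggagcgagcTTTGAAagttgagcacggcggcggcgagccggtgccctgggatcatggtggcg
SMC1A: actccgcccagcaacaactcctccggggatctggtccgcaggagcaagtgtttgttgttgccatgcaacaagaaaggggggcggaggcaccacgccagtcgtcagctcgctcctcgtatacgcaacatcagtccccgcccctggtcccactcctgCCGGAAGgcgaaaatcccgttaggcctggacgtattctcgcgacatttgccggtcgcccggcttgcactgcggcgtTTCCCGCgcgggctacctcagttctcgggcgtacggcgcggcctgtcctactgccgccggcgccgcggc
STAG2: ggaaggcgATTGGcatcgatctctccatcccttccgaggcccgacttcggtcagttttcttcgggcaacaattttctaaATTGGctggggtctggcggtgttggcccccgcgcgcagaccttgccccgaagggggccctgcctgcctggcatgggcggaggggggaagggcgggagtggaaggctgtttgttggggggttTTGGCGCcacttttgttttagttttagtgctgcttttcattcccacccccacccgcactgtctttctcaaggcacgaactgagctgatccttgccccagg

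In the NCAPG window the E2F-like words stood at -101 and -45 from the gene start and the CHR word at -35, with the ETS core at -226. NCAPD2 had 4 CCAAT boxes, at -199, -170, -70 and -30, and a CHR word at -145. NCAPD3 had CCAAT boxes at -110 and -45 and a CHR word at -3. The windows shown of SMC1A and STAG2 held an E2F-like word at -19 and -50 and no CHR word. The other windows of these genes held no E2F-like word.

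FLI1, which reports the fusion because EWS-FLI1 carries its 3' part, read 9.99 to 10.17 on the 4 arrays at 0 h and 6.34 to 7.17 on the 12 later ones. It was lower by 3.20 ± 0.14 (SE) on the log2 scale at 18 h (limma, Benjamini-Hochberg adjusted p = 4.98e-08). EWSR1 differed by -0.21 at 18 h (adjusted p = 0.0887) and by -0.84 at 72 h (adjusted p = 5.74e-06). Of 7 markers of the line, 6 were tested, and their summed linear level ran from 30200 to 35600 at 0 h and from 18500 to 18800 at 96 h, with FLI1 itself among them. The 4 blood and 4 endothelial markers on the array stayed under log2 4 on all 16 arrays, as did EPCAM, CDH1 and KRT19. KRT18, the remaining epithelial marker, was lower by 1.07 at 18 h (adjusted p = 0.00364) and by 1.65 at 36 h (2.41e-05) and higher by 0.95 at 72 h (0.00482) and by 0.96 at 96 h (0.00542). Its part in the subunits' changes was not tested.

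Arrays of 1 time did not read alike for these genes. At 0 h, replicate 4 had the lowest value of all 10 subunits, while 36.2% of the 7304 genes tested were lowest on it. It also had the smallest difference of all arrays between the 3' and 5' control probe sets of ACTB, a measure of RNA quality, at 1.47 against 1.90 to 2.06 on the other 0 h arrays. Replicate 2 read below replicate 1 for 10 of 10 subunits at 53 h (65.9% of genes tested), 9 of 10 at 72 h (55.4%) and 9 of 10 at 96 h (52.5%). At these times the ACTB difference was also smaller on replicate 2, at 1.83 against 2.34, 1.61 against 1.70 and 1.56 against 1.83. With the ACTB difference as a covariate, added after the arrays were compared, every call of a subunit against 0 h described below was kept. Without replicate 4 of 0 h, no call of a subunit changed in the 5 comparisons with 0 h.

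All 10 subunits changed over the course in the moderated F test, which 84.0% of the genes tested passed. At 18 h 0 of the 10 were called by limma (14.7% of genes tested were called lower and 14.8% higher), 1 had an unadjusted p under 0.05, and array weights called 4. At 36 h 8 were lower (32.1% of genes called lower) and at 53 h 9 were (34.5%). All 10 were lower at 72 h (39.2% of genes) and all 10 were lower at 96 h (35.7%). From 36 h on the share of subunits called lower was above that over all genes. The subunits were chosen with earlier results of these data known, so this excess is no independent test. No subunit was called higher against 0 h at any time, where 33.2%, 31.8%, 29.3% and 25.1% of genes tested were called higher from 36 h to 96 h in turn. All arrays of the later time lay below all arrays of 0 h for 2 subunits at 18 h (20.4% of genes tested) and 8 subunits at 36 h (33.1%). The same held for 10 subunits at 53 h (39.2% of genes), for 9 of them at 72 h (44.9%) and for 10 again at 96 h (40.3%). Against 18 h, 8 subunits were lower at 36 h (22.9% of genes tested). In bulk RNA, fewer cells that express a gene and less RNA per cell cannot be told apart. These 5 comparisons share the 4 arrays of 0 h. The median log2 change of the 6 condensin genes for 36 h, 72 h and 96 h was -1.80, -3.17 and -1.04, and that of the 4 cohesin genes -0.28, -0.69 and -0.50. Over all genes tested the medians were 0.02, -0.11 and -0.10.

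**Figure D1:**
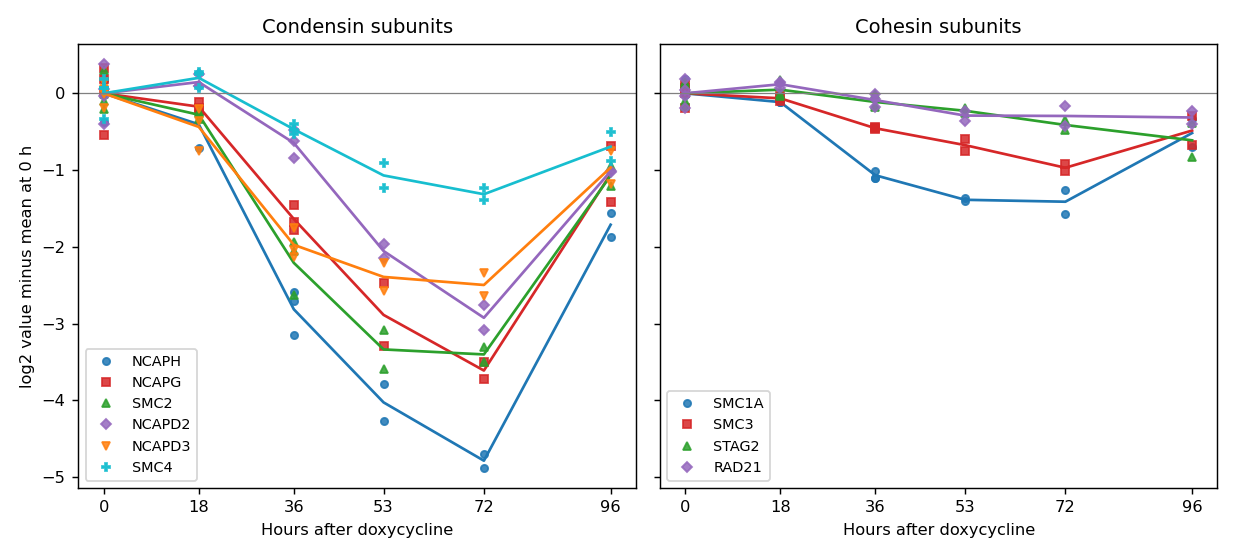
Log2 value of each array minus the mean of the 4 arrays at 0 h (vertical axis) against hours after doxycycline (horizontal axis). Each point is 1 array and lines join time means, with the 6 condensin genes on the left and the 4 cohesin genes on the right. NCAPH reached -4.78 at 72 h and RAD21 -0.29.

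SMC2 and SMC4, the ATPases common to condensin I and II, fell by different amounts. SMC2 read 9.69, 9.28, 9.38 and 9.18 at 0 h, 7.44, 6.75 and 7.33 at 36 h, 6.08 and 5.88 at 72 h, and 8.44 and 8.18 at 96 h. The arrays of each of these later times stood apart from those at 0 h. SMC2 was 4.62-fold lower at 36 h and 10.6-fold lower at 72 h (log2 change -3.40 ± 0.20 SE, adjusted p = 5.16e-09). SMC4 read 11.44, 11.33, 11.33 and 10.92 at 0 h and 10.02 and 9.86 at 72 h. Its fall at 72 h was 2.49-fold (log2 change -1.32 ± 0.15, adjusted p = 2.53e-06). At 18 h SMC4 read 11.33 to 11.53, within or just above the 0 h arrays. The second probe set of SMC2 followed the first (Pearson r = 0.989 over the 16 arrays), as did that of SMC4 (r = 0.970).

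The condensin I kleisin, NCAPH, had the deepest fall. It read 8.71, 8.88, 8.87 and 8.33 at 0 h, 5.55, 6.11 and 5.99 at 36 h, 4.91 and 4.43 at 53 h, 4.00 and 3.82 at 72 h, and 7.14 and 6.83 at 96 h. Its arrays at 36 h and later all lay below those at 0 h, and 1 of the 2 arrays at 72 h was under log2 4. At 18 h NCAPH differed by -0.40 and was not called (adjusted p = 0.131). It was called there with array weights (-0.40, adjusted p = 0.00706) and with the ACTB covariate (-0.49, adjusted p = 0.033). NCAPH was 7.02-fold lower at 36 h. At 72 h it was at least 25.9-fold lower with the value under log2 4 set to 4, and 27.5-fold lower as fitted (log2 change -4.78 ± 0.22, adjusted p = 5.47e-10).

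NCAPG, a HEAT-repeat subunit of condensin I, read 11.59, 11.44, 11.29 and 10.71 at 0 h and 9.48, 9.58 and 9.80 at 36 h. It went down to 7.75 and 7.54 at 72 h and stood at 10.57 and 9.84 at 96 h. The fall was 3.11-fold at 36 h and 12.3-fold at 72 h (log2 change -3.61 ± 0.26, adjusted p = 3.52e-08), and its second probe set followed (r = 0.991). At 96 h NCAPG was lower by 1.05 ± 0.26 (adjusted p = 0.00304), and without replicate 2 of 96 h the difference was -0.69 (adjusted p = 0.0805).

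NCAPD2, the other HEAT-repeat subunit of condensin I, was lower at 36 h but had most of its fall after that. It read 9.63, 9.30, 9.22 and 8.85 at 0 h, 8.41, 8.63 and 8.77 at 36 h, 7.29 and 7.10 at 53 h, and 6.49 and 6.16 at 72 h. At 36 h its highest array lay just under the lowest of 0 h, and the change was -0.65 (95% interval -0.98 to -0.31, adjusted p = 0.00229). By 72 h NCAPD2 was 7.62-fold lower (log2 change -2.93 ± 0.18, adjusted p = 6.67e-09).

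NCAPD3, the condensin II counterpart of NCAPD2, had most of its fall by 36 h. It read 9.08, 8.99, 8.93 and 8.75 at 0 h, 8.19, 8.73 and 8.58 at 18 h, 6.90, 6.81 and 7.18 at 36 h, and 6.59 and 6.29 at 72 h. At 18 h all 3 arrays already lay below those of 0 h, and the change of -0.44 did not pass the test (adjusted p = 0.0578). It did pass with arrays centred on their median (adjusted p = 0.045), with array weights (0.0245), with the ACTB covariate (0.0326), without replicate 2 of 18 h (0.0413) and without either array of 96 h (0.05 and 0.0498). At 36 h the change was -1.97 (95% interval -2.32 to -1.62, adjusted p = 2.23e-07), against -2.50 ± 0.18 at 72 h.

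The other condensin II genes on the array, the HEAT-repeat subunit NCAPG2 and the kleisin NCAPH2, also had most of their fall by 36 h. NCAPG2 read 9.67 to 10.08 at 0 h, 7.59 to 7.67 at 36 h and 6.69 to 6.71 at 72 h. NCAPH2 read 6.85 to 7.19 at 0 h, 5.33 to 5.64 at 36 h and 5.21 to 5.26 at 72 h, and was called lower as early as 18 h (log2 change -0.38, adjusted p = 0.0344). Of the log2 fall present at 72 h, NCAPD3 had 79.0% by 36 h, NCAPG2 70.8% and NCAPH2 82.9%. For the condensin I genes NCAPH, NCAPG and NCAPD2 these shares were 58.8%, 45.2% and 22.1%. The share of NCAPH is as fitted, as its 72 h arrays read 4.00 and 3.82, at the limit of low values. This grouping was made after the values were seen, and the difference between the complexes was not tested. SMC2 stood at 64.9%, SMC4 at 35.8% and SMC1A of cohesin at 75.4%. Having most of the fall by 36 h was therefore not particular to condensin II, as NCAPH, SMC2 and SMC1A had it too. NCAPD2, NCAPD3 and NCAPH were read from a single probe set each.

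A comparison of 72 h with 36 h, likewise added after the courses were seen, gave the second step. The ACTB difference was 2.09 to 2.45 at 36 h and 1.61 to 1.70 at 72 h. All 10 subunits had a positive slope on it, from 0.35 for RAD21 to 1.32 for NCAPG, and none passed adjustment. The comparison was not rerun with it as a covariate. Its part in this step and in the shares reached by 36 h was not tested. NCAPD2 fell by a further 2.28 ± 0.19 on the log2 scale (adjusted p = 7.05e-07), NCAPG by 1.98 ± 0.27 and NCAPH by 1.97 ± 0.23 as fitted. NCAPD3 fell by 0.52 ± 0.19 (adjusted p = 0.0416), NCAPG2 by 0.92 ± 0.15, and NCAPH2 differed by -0.29 (95% interval -0.62 to 0.03, adjusted p = 0.127). In all, 8 of the 10 subunits were lower at 72 h than at 36 h (29.0% of genes tested), all but RAD21 and STAG2. The call of NCAPD3 was lost without replicate 1 (adjusted p = 0.0518) or 3 (0.135) of 36 h and without replicate 1 (0.0544) or 2 (-0.37, 0.28) of 72 h. That of SMC1A (-0.35, adjusted p = 0.0293) was lost without replicate 1 (0.0657) or 3 (0.0511) of 36 h and without replicate 2 of 72 h (-0.19, 0.319).

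**Figure D2:**
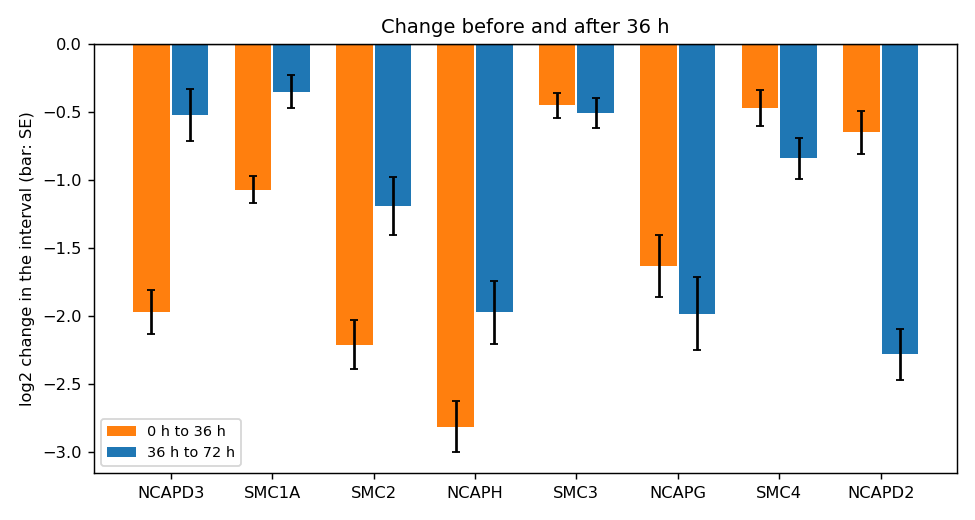
Log2 change (vertical axis) from 0 h to 36 h and from 36 h to 72 h for the 8 subunits that passed the test in both intervals, ordered by the share of the 72 h fall reached at 36 h. Bars are differences of group means and whiskers 1 SE on either side. NCAPD3 changed by -1.97 and then -0.52, NCAPD2 by -0.65 and then -2.28.

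SMC1A had the largest change among the cohesin genes. It read 11.88, 11.71, 11.68 and 11.52 at 0 h, 11.58, 11.59 and 11.58 at 18 h, 10.69, 10.60 and 10.60 at 36 h, 10.44 and 10.13 at 72 h, and 11.36 and 11.00 at 96 h. The arrays from 36 h on all lay below those of 0 h. SMC1A was 2.10-fold lower at 36 h (log2 change -1.07 ± 0.10, adjusted p = 7.04e-07) and 2.67-fold lower at 72 h, with 75.4% of the 72 h fall present by 36 h.

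SMC3, the partner of SMC1A, read 10.66, 10.76, 10.73 and 10.47 at 0 h, 10.21, 10.20 and 10.19 at 36 h, 9.64 and 9.73 at 72 h, and 10.36 and 9.98 at 96 h. It was 1.37-fold lower at 36 h (adjusted p = 0.000761) and 1.96-fold lower at 72 h (log2 change -0.97 ± 0.11, adjusted p = 2.38e-06). RAD21 and STAG2 were not called at 36 h, with exceptions. RAD21 was called there with each gene's probe sets averaged (-0.23, adjusted p = 0.0483), and STAG2 with array weights (-0.16, 0.0489) and in its probe set 207983_s_at (-0.23, 0.0303 in the probe set fit).

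RAD21, the kleisin that separase cleaves at anaphase, read 11.29, 11.07, 11.15 and 10.91 at 0 h, 11.03, 10.93 and 11.09 at 36 h, 10.94 and 10.68 at 72 h, and 10.88 and 10.70 at 96 h. The 72 h arrays overlapped those of 0 h. Its changes were -0.09 at 36 h (95% interval -0.29 to 0.11, adjusted p = 0.424), -0.29 at 72 h (-0.52 to -0.07, adjusted p = 0.024) and -0.31 at 96 h (-0.53 to -0.08, adjusted p = 0.0204). The call at 72 h was lost without replicate 2 of 72 h (log2 change -0.16, adjusted p = 0.294), without replicate 1 (-0.23, 0.0588) or 3 (-0.28, 0.0506) of 0 h, with arrays centred on their median (-0.17, 0.124) and with each gene's probe sets averaged (-0.19, 0.141). The call at 96 h was lost without replicate 2 of 96 h (-0.22, 0.191). At 53 h the call was lost without replicate 2 of 53 h (-0.23, 0.179), without replicate 1 (-0.23, 0.0644) or 3 (-0.27, 0.055) of 0 h and with probe sets averaged (-0.22, 0.0854).

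STAG2, which docks on RAD21, read 11.62, 11.37, 11.59 and 11.31 at 0 h, 11.46, 11.30 and 11.32 at 36 h, 11.13 and 10.99 at 72 h, and 11.08 and 10.64 at 96 h. Its 72 h and 96 h arrays lay below those of 0 h. STAG2 was lower by 0.41 ± 0.12 at 72 h (adjusted p = 0.00807; 0.0818 without replicate 2 of 72 h) and by 0.61 ± 0.12 at 96 h (adjusted p = 0.000656). At 53 h the difference of -0.23 was not called (adjusted p = 0.115). It was called with the replicate number as a block (-0.29, adjusted p = 0.0159), with probe sets averaged (-0.27, 0.0103), with _x_at and _s_at probe sets left out (-0.28, 0.023) and with the ACTB covariate (-0.33, 0.0277). In the probe set fit all 3 probe sets of STAG2 were lower at 72 h (36.9% of probe sets were called lower) and at 96 h (34.2%), where they differed by -0.57, -0.56 and -0.61. STAG1, the alternative to STAG2, read 8.63 to 9.19 at 0 h and fell earlier, by 0.79 ± 0.12 at 36 h (adjusted p = 6.28e-05), and at 96 h it differed from 0 h by -0.15 (adjusted p = 0.36).

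**Figure D3:**
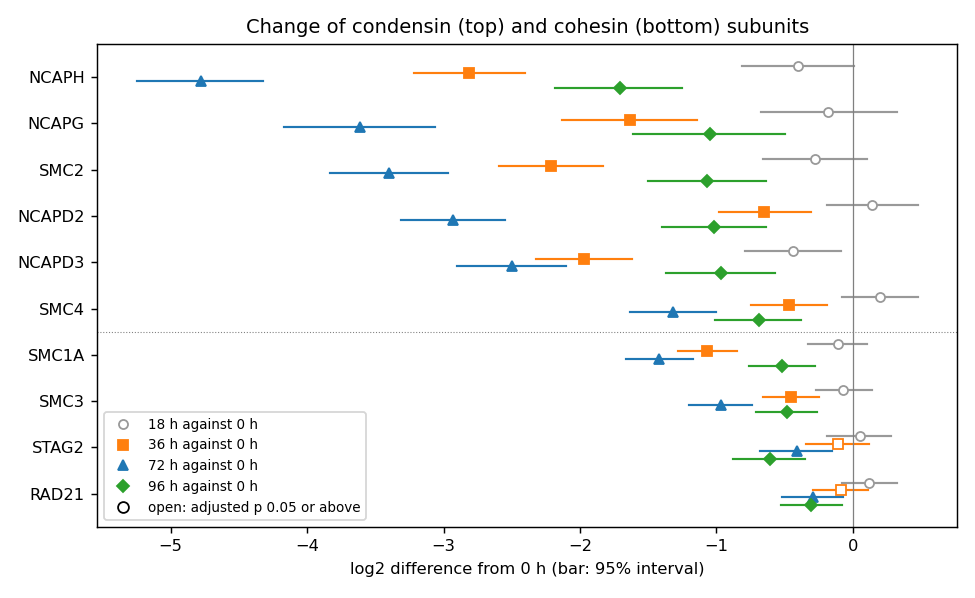
Log2 difference from 0 h (horizontal axis) of the 10 subunits at 18 h, 36 h, 72 h and 96 h, with 95% intervals as bars; filled symbols passed limma at an adjusted p under 0.05. All 18 h symbols are open, and at 36 h those of STAG2 and RAD21.

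Between 72 h and 96 h the condensin genes and the SMC ATPases of cohesin rose again, 8 of the 10 in all (17.1% of genes tested were called higher). NCAPH was at least 7.89-fold higher at 96 h than at 72 h, with the value under log2 4 set to 4, and 8.40-fold as fitted (log2 difference 3.07 ± 0.25, adjusted p = 1.85e-06). NCAPG was higher 5.90-fold, SMC2 5.02-fold, NCAPD2 3.77-fold and NCAPD3 2.89-fold. SMC1A rose by 0.90 ± 0.13 (adjusted p = 0.000203). SMC4 rose by 0.62 ± 0.17 (adjusted p = 0.0145), which was lost without replicate 2 of 72 h (0.55, adjusted p = 0.10) and without replicate 1 of 96 h (0.43, 0.148). SMC3 rose by 0.48 ± 0.12 (adjusted p = 0.0103), lost without replicate 1 of 72 h (0.44, 0.0753), without replicate 1 of 96 h (0.29, 0.121), with each gene's probe sets averaged (0.28, 0.357) and with only the arrays of these times fitted (0.48, 0.0822). RAD21 and STAG2 differed by -0.02 (95% interval -0.28 to 0.24) and -0.20 (-0.50 to 0.10).

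The 96 h levels remained under those of 0 h. NCAPH stood at 3.63% of its 0 h level at 72 h, as fitted, and at 30.5% at 96 h, and the other condensin genes at 47.5% to 61.8% at 96 h. NCAPG regained 70.8% of its log2 fall and NCAPD3 61.3%. FLI1 differed by -0.27 between these times (adjusted p = 0.322). The ACTB difference was 1.61 to 1.70 at 72 h and 1.56 to 1.83 at 96 h.

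Ordered by time mean, the levels of NCAPG and NCAPH ran 0 h, 18 h, 96 h, 36 h, 53 h and 72 h, and only 0 h and 18 h overlapped among neighbours in that order. SMC1A, SMC2 and NCAPD3 had the same order, with overlap between 53 h and 72 h, and for SMC1A also between 0 h and 18 h. NCAPD2 was highest at 18 h, overlapping 0 h, and at 96 h stood below 36 h. SMC4 had the order of NCAPD2, and SMC3 that order with 0 h above 18 h, with 36 h and 96 h overlapping for both. RAD21 and STAG2 ran 18 h, 0 h, 36 h, 53 h, 72 h and 96 h, with 4 and 3 of 5 neighbouring pairs overlapping.

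The genes with courses most like that of NCAPH, the condensin gene with the widest range of time means, were CCNA2 (r = 0.996 over the 16 arrays), CCNF, CENPM, TACC3 and BUB1B (each r = 0.994). CCNA2 encodes cyclin A, and BUB1B a spindle checkpoint kinase. For SMC1A, the cohesin gene with the widest range, they were NCAPG2 (r = 0.991), PLK4 and POLE (0.990), MTHFD1 (0.989) and DDX39A (0.987). PLK4 duplicates centrioles and POLE is a replicative DNA polymerase. Arrays of 1 time share its place in the course, so these values describe the course only. SMC1A correlated at 0.984 with both SMC2 and NCAPD3, at 0.913 with SMC3 and at 0.515 with STAG2. RAD21 and STAG2 correlated at 0.862, but were no pair apart. With SMC4 of condensin, RAD21 correlated at 0.881 and STAG2 at 0.722.

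Related genes were counted by list, against 39.2% of all genes tested called lower and 29.3% called higher at 72 h. Of 7 genes of cohesin loading and release, 6 were tested, and 4 were lower and 1 higher at 72 h, with a list median of -0.62. WAPL, which opens the ring, fell by 1.07 ± 0.09 (adjusted p = 2.91e-07), PDS5A, its partner, by 0.88 ± 0.14, and CTCF, which stops cohesin at loop anchors, by 0.74 ± 0.11. PDS5B, the paralog of PDS5A, was lower by 0.50 (adjusted p = 0.0337). MAU2, of the loader, rose by 0.69 ± 0.13 (adjusted p = 0.000223), and NIPBL, its partner, differed by 0.06 (adjusted p = 0.729).

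All 4 tested genes of cohesion establishment at replication, of 9 listed, fell from 36 h on (median -3.15 at 72 h), and 2 were lower at 18 h, where 14.7% of genes tested were. DSCC1, of the alternative clamp loader, read 7.56 on average at 0 h and was under log2 4 on every array at 36 h, 53 h and 72 h, at least 11.8-fold lower when its mean at 0 h is set against log2 4. The helicase DDX11 was lower by 0.79 ± 0.17 already at 18 h (adjusted p = 0.00392) and by 2.59 ± 0.19 at 72 h. TIMELESS, of the fork protection complex, fell by 2.94 ± 0.14 at 72 h. WDHD1, a replisome scaffold, fell by 3.35 ± 0.29.

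All 5 tested genes of cohesin cleavage and protection, of 7 listed, were lower from 36 h on, with a median of -4.15 at 72 h. ESPL1, the separase that cuts RAD21, fell by 4.15 ± 0.25 at 72 h (adjusted p = 5.74e-09) and PTTG1, its inhibitor securin, by 3.11 ± 0.10 (3.67e-11). BUB1, a centromere kinase, fell by 4.35 ± 0.21. PLK1, a mitotic kinase, was under log2 4 on both arrays at 72 h, at least 18.9-fold lower. All 5 were higher at 96 h than at 72 h.

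Of 8 genes of mitotic chromosome structure 7 were tested, and 6 were lower at 72 h (median -2.80). KIF4A, a chromokinesin that works with condensin, fell by 3.93 ± 0.18, MKI67, which coats mitotic chromosomes, fell by 3.90 ± 0.24, and KIF22, another chromokinesin, fell by 3.47 ± 0.15. CDK1, the kinase of mitotic entry, fell by 2.80 ± 0.17. In the SMC5/6 complex, a DNA repair relative, 2 of 4 tested genes were lower at 72 h, a share near the 39.2% of all genes tested. NSMCE4A fell by 1.22 ± 0.08 and SMC6 by 1.13 ± 0.12, while SMC5 differed by 0.01 (adjusted p = 0.965) and SLF2 by -0.32 (adjusted p = 0.102). RAD50, the SMC-like protein of double-strand break repair, was higher by 0.41 ± 0.13 at 36 h (adjusted p = 0.0158) and lower by 0.97 ± 0.15 at 72 h. SMCHD1, which acts on the inactive X chromosome, fell by 0.92 ± 0.14 at 72 h. The meiotic subunits STAG3, REC8 and RAD21L1 stayed under log2 4, with 2.79 the highest value.

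**Figure D4:**
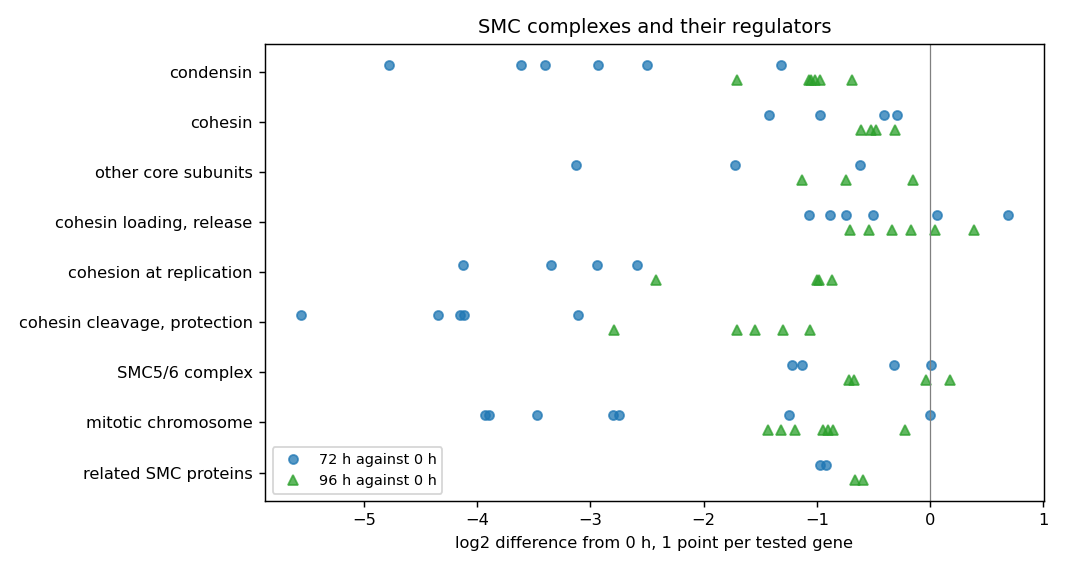
Log2 difference from 0 h (horizontal axis) at 72 h and 96 h for the condensin and cohesin subunits and for the tested genes of 7 lists of related genes (rows); each point is 1 gene at its fitted value. Apart from PLK1, which was under log2 4 at 72 h so that its point is no measured fold, the cleavage and protection genes lie between -4.35 and -3.11 at 72 h, and the 6 loading and release genes between -1.07 and 0.69. The 72 h points of DSCC1, under log2 4 on both arrays, and of NCAPH, under it on 1, are no measured folds either.

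Probe sets of SMC3, RAD21 and SMC1A agreed in part. The values above come from the brightest probe set of each gene. The dimmer SMC3 probe sets, 209257_s_at and 209258_s_at, correlated with the bright one at 0.412 and 0.594 and with each other at 0.935. In the probe set fit, 209258_s_at was lower at 36 h by 0.98 ± 0.20 (adjusted p = 0.000839; 31.8% of probe sets were called lower) and stayed called at 53 h, 72 h (-0.78, adjusted p = 0.00831) and 96 h, as the bright one was. 209257_s_at was lower at 36 h too (-0.95, adjusted p = 0.0124), and at 53 h, 72 h (-0.72, adjusted p = 0.0741) and 96 h it was not called. Neither was called between 96 h and 72 h (differences 0.13 and 0.24).

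The dimmer RAD21 probe set, 200607_s_at, was called at no time and correlated with the bright one at 0.106. It read 9.20 on replicate 4 of 0 h and 9.08 on replicate 2 of 53 h, the highest values it had, where the bright RAD21 probe set read 10.91 and 10.75, the lowest of their times. Those were also the arrays with the smaller ACTB difference within their times. The log2 slope on that difference was -1.0 ± 0.24 SE for 200607_s_at and 0.35 ± 0.16 for the bright probe set, and neither passed adjustment over all probe sets (adjusted p = 0.0793 and 0.269). The second SMC1A probe set, 217555_at, lay between 4.11 and 5.04 on all arrays and was called at no time.

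**Figure D5:**
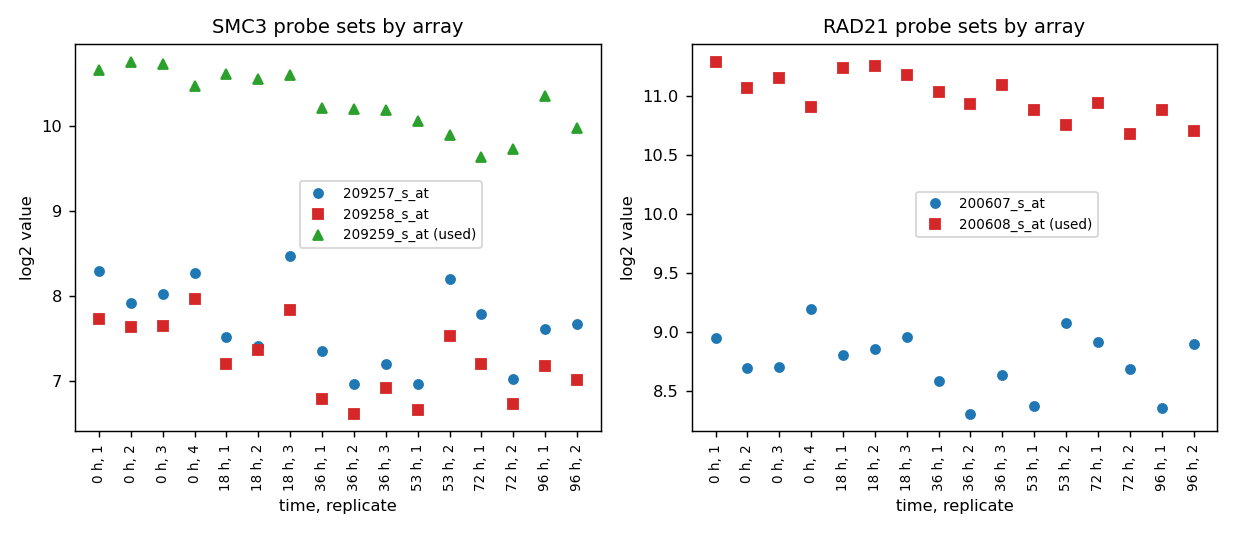
Log2 value (vertical axis) of each probe set of SMC3 (left) and RAD21 (right) on the 16 arrays, ordered by time and replicate number (horizontal axis); each point is 1 array. The bright SMC3 probe set goes from 10.66 on the first array to 9.64 on replicate 1 of 72 h, and the bright RAD21 probe set stays between 10.68 and 11.29.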

How the data were processed

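RNA of 16 samples was measured on Affymetrix arrays. The authors deposited 1 log2 value per probe set and array, computed by GCRMA according to the submitters' processing notes. Its version and settings were not given in the sources used here. Of 22277 probe sets, 19070 carried exactly 1 symbol in the platform annotation. Each gene was read from the probe set with the highest mean. Genes with log2 of at least 4 on at least 2 arrays (7304) were fitted with limma 3.58.1 under R 4.3.3 (lmFit over all 16 arrays, 1 mean per time, contrasts, eBayes with a trend), and p-values were adjusted by Benjamini-Hochberg over all genes tested, with a threshold of 0.05. A separate fit covered 10947 probe sets. A log2 value under 4 marks a dim gene and is not a detection call. Figures used Python 3.11.15 and matplotlib 3.10.9. The subunits and gene lists were chosen with earlier results of these data known. Named genes were all subunits, at most 4 tested genes per list with the smallest F test p, FLI1 and EWSR1, and the 5 genes most like NCAPH and SMC1A; KRT18 and the genes of the marker lists were named beside them, and PDS5B and NIPBL after their values were seen. Bounds written as at least a fold set values under log2 4 to 4.

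Whether the numbered replicates were separate cultures is not in the labels, and p-values therefore describe the spread between these arrays, which may be technical. Deviations from the time means correlated between arrays of the same number at 0.508 to 0.632 for 0 h with 18 h. The range was 0.214 to 0.304 for 0 h with 36 h and 0.244 to 0.366 for 18 h with 36 h. With later times the sign varied, from -0.207 to -0.205 for 18 h with 96 h to 0.248 for 53 h with 96 h. For 0 h with 53 h the range was -0.117 to 0.109. The replicate block took equal numbers as pairs at all times, although the labels state no pairing. Its calls at the later times rest on that assumption. Numbers 2 and 3 were not told apart. The model was tested on simulated data with 200 of 7304 genes changed, far fewer than were called here. The simulated arrays varied independently of each other, unlike the numbered replicates here. The shares recovered are therefore not the power of this design. Of log2 changes of 0.5, 46% were recovered at 18 h and 32.5% at 96 h. Of changes of 1, 92.5% and 79.5% were. Alternatives covered normalization, filters, probe set choice, variance model, samples in the fit, single arrays left out, the replicate block and replicates 2 and 3 averaged.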

Additional observations from a re-analysis of the deposited data

How the results depend on the processing

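No difference of a subunit reversed its called direction under any alternative run. The count of subunits called at 18 h, 0 in the fit described, was 1 with arrays centred on their median, 4 with array weights (3 lower and 1 higher), 2 with the ACTB covariate (chosen after seeing the data) and 0 to 1 with single arrays left out. From 36 h on, each count of subunits stayed within 1.5 times under the alternatives run. The added comparison of 72 h with 36 h was rerun only with single arrays of those times left out, which called 6 to 8 subunits. The replicate block made 2 further calls, STAG2 at 53 h (-0.29, adjusted p = 0.0159) and RAD21 at 36 h against 18 h (-0.21, adjusted p = 0.0304), and changed no other call. The STAG2 call assumes a pairing of 0 h with 53 h arrays that their deviations did not show. RAD21 at 53 h, 72 h and 96 h was not called with only the arrays of the groups compared (adjusted p 0.0547, 0.0666 and 0.0605) or with replicates 2 and 3 averaged (0.0637, 0.0592 and 0.0539). With each gene's probe sets averaged it lost its calls at 53 h and 72 h and was called at 36 h (-0.23, 0.0483) and for 36 h against 18 h (-0.29, 0.039), the latter also with array weights (-0.18, 0.0293), with only the arrays of the groups compared (-0.21, 0.0447) and with the ACTB covariate (-0.32, 0.0218).

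Over all genes, leaving out probe sets ending in _x_at or _s_at (4431 genes tested) gave 1320, 2855, 2933, 3020 and 2694 calls at 18 h, 36 h, 53 h, 72 h and 96 h, 1910 for 36 h against 18 h and 1124 for 96 h against 72 h, where fewer genes were tested, against 2150, 4772, 4845, 5003, 4440, 3272 and 1988. At 18 h array weights gave 3546 and replicates 2 and 3 averaged gave 1269, and the latter gave 1896 for 36 h against 18 h. With single arrays left out, the counts ran from 1353 to 2443 at 18 h (1353 without replicate 1 of 18 h) and from 1234 to 2227 for 96 h against 72 h (1234 and 1276 without replicate 1 or 2 of 72 h, 1273 without replicate 1 of 96 h). The cause of these differences was not tested, apart from the smaller number of genes. A group of 2 arrays left with 1 was assumed to vary like the other groups. Each of the last 3 times rested on 2 arrays, which limits small changes such as those of RAD21 most.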

Other observations

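Replicates 2 and 3 read closer to each other than other pairs of arrays of a time. The SD of their difference over the genes tested was 0.176 at 0 h, 0.164 at 18 h and 0.186 at 36 h on the log2 scale, against 0.234 to 0.528 for the other pairs. With these replicates averaged, SMC3 at 36 h against 18 h was no longer called (log2 difference -0.40, adjusted p = 0.0602).

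Within times, the dimmer probe sets of SMC3 moved with that of RAD21 more than with the bright ones. After the time means were subtracted, 209257_s_at and 209258_s_at of SMC3 correlated at 0.702 and 0.707 with 200607_s_at of RAD21 over the 16 arrays. The 16 deviations are not separate values, as the 2 arrays of 53 h, 72 h or 96 h deviate by equal and opposite amounts. The 53 h arrays lay far apart, at 6.97 and 8.21 for 209257_s_at and 8.38 and 9.08 for 200607_s_at. With the bright SMC3 probe set 209257_s_at and 209258_s_at correlated at -0.364 and -0.361, and with the bright RAD21 probe set at -0.003 and -0.065. 200607_s_at correlated at -0.287 with the bright RAD21 probe set and at -0.855 with the bright SMC3 probe set. The bright RAD21 and bright SMC1A probe sets correlated at 0.863. On the log2 scale, the slope on the ACTB 3' less 5' difference was negative for 200607_s_at, 209257_s_at (-1.02 ± 0.54 SE) and 209258_s_at (-0.83 ± 0.34). It was also negative for 217555_at of SMC1A (-0.25) and 207983_s_at of STAG2 (-0.14), likewise unused. The slope was positive for all 10 probe sets used, from 0.35 to 1.32, the latter for NCAPG. The other unused probe sets fitted, of SMC2 (0.68), SMC4 (0.35), NCAPG (0.70) and STAG2 (0.44), had positive slopes too. None of these slopes passed adjustment over all probe sets (adjusted p 0.0707 for NCAPG and 0.0793 for 200607_s_at).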
